A study of Mus musculus with 9 samples.

Results

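A set of 9 noncoding RNAs was followed in the colonic mucosa of mice, 3 that stay in the nucleus (Malat1, Neat1 and Kcnq1ot1) and 6 spliced transcripts that host small nucleolar RNAs (Gas5, Snhg1, Snhg3, Snhg6, Snhg8 and Snhg12). They were picked by symbol among the 54146 genes of the deposited table, by a rule that uses no measured value. The list itself was drawn up with earlier results of these data known. All 9 were in the table, and 8 of them were among the 14410 genes tested, those whose normalized count reached 10 in 4 or more mice. Only Snhg3 stayed below that level. Malat1 was the 1 member that passed the test, and it was lower in the mice that carried the p16cis allele. Neat1, Kcnq1ot1 and the 5 host genes tested did not pass.

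RNA-seq was made from 9 C57BL/6J mice aged 15 wk, of which 5 were ApcMin/+ and 4 were ApcMin/+; p16cis/cis. Females numbered 2 in the first group and 3 in the second, the rest being males. All 9 mice carried the germline Apc mutation of the Min allele, which starts intestinal adenomas. The second group also carried, on both alleles and in every cell, the p16cis knock-in, an inserted element from which DNA methylation spreads over the p16 promoter, so the comparison asks what that element adds to Apc mutation in mucosa that looked normal. No group without the Min allele was measured. RNA came from colonic crypts, and rRNA depletion and oligo(dT) selection preceded sequencing. Each value is a normalized count, the number of reads on a gene divided by a size factor of that mouse. The libraries held 13523500 to 17885918 reads on genes, and each mouse is 1 replicate.

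Malat1 and Neat1 are long RNAs of nuclear bodies: Malat1 gathers in splicing speckles, and Neat1 builds paraspeckles. Kcnq1ot1 is an imprinted antisense RNA that stays at its own locus and silences neighbouring genes on the same chromosome copy. The host genes work the other way round, since their introns hold the product, snoRNAs that guide modification or processing of other RNAs, while the spliced exons reach the cytoplasm, meet ribosomes and are in several cases broken down by nonsense-mediated decay. Many snoRNA host genes start, like ribosomal protein genes, with a run of pyrimidines that ties them to growth signals.

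These features can be read in the transcripts of the GENCODE M21 annotation of GRCm38. The first bases of each RNA are shown because the pyrimidine start separates most of the hosts from the nuclear-retained RNAs. Capitals mark a C at the first base with at least 4 further pyrimidines, and for each gene the transcript model with the longest run is given. For Snhg3 the first exon is shown.
Malat1-201, chr19:5802633-5802672, minus strand: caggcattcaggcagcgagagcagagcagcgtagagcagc
Neat1-201, chr19:5845439-5845478, minus strand: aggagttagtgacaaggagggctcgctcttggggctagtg
Kcnq1ot1-201, chr7:143296510-143296549, minus strand: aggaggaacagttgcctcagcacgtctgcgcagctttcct
Gas5-203, chr1:161034929-161034968, plus strand: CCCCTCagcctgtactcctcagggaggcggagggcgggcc
Snhg1-215, chr19:8723487-8723526, plus strand: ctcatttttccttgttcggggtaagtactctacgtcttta
Snhg3-203, chr4:132353597-132353633, minus strand: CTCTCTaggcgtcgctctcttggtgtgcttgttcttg
Snhg6-203, chr1:9944079-9944118, minus strand: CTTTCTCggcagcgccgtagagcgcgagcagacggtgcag
Snhg8-201, chr3:123508365-123508404, minus strand: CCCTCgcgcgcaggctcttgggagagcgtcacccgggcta
Snhg12-210, chr4:132308676-132308715, plus strand: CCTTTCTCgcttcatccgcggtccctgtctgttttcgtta
A model with such a start was annotated for 5 of the 6 hosts and for 0 of the 3 nuclear-retained RNAs, against 2516 of 55450 annotated genes (4.54%). The run was longest in Snhg12, at 8 bases, and the best model of Snhg1 had a run of 3. Genes with many models have more chances, and of the 25 models of Gas5 5 had the tract. Only the transcript strand was searched.

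The 3′ ends set Malat1 and Neat1 apart from the rest of the set. Malat1 and the long isoform of Neat1 are known to be cut by RNase P rather than ended by a poly(A) tail, and their ends are known to be protected by a helix in which U-rich stretches clasp an A-rich tract. Capitals mark the runs of at least 11 bases that the last 400 bases of both transcripts share.
Malat1-201, chr19:5795982-5796091, minus strand: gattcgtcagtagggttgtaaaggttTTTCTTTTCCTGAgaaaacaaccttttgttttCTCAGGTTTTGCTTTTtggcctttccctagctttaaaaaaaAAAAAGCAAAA
Neat1-201, chr19:5824708-5824817, minus strand: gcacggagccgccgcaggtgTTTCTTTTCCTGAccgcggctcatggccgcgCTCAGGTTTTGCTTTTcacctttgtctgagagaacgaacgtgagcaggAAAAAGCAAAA
The 3 shared runs, TTTCTTTTCCTGA, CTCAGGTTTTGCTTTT and AAAAAGCAAAA, came in the same order in both RNAs. The last of them ends at base 6691 of the 6983 bases of the Malat1 model and at the last base of the 20771-base Neat1 model. Within the last 400 bases of the longest transcript of each gene, read on the transcript strand, TTTCTTTTCCTGA was present in 3 of 55450 genes (0.00541%), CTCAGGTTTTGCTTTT in 2 (0.00361%) and AAAAAGCAAAA in 73 (0.132%). Malat1 and Neat1 were the genes that held all 3, which is how the runs were chosen. The longest run of A was 12 bases in Malat1, at this tract, 7 in Neat1, 41 in Kcnq1ot1 and 12 in Snhg12. It was 4 or 5 bases in the other hosts. How much of each RNA the oligo(dT) selection kept was not tested.

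The hosted snoRNAs are the third feature, and examples are shown from the introns of Gas5 and Snhg6. Capitals mark the C box (TGATGA) and the D box (CTGA) that snoRNP proteins bind.
Snord47, inside Gas5, chr1:161038082-161038158, plus strand: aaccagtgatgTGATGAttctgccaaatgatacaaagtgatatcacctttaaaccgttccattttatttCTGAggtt
Snord87, inside Snhg6, chr1:9942463-9942549, minus strand: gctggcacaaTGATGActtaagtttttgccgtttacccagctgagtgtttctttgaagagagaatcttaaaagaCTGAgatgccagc
Of the 14 snoRNA genes that the annotation places inside the members on the same strand, 13 were listed at 0 in all 9 mice, Snord47 among them. Snord87 was listed at 1.14 to 6.70 normalized counts. The host transcripts were therefore measured in these libraries, and their snoRNA products were not.

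Malat1 is a gene of 1 exon in its longest model, at chr19:5795690-5802672 of GRCm38 (minus strand). Its normalized counts in the 5 ApcMin/+ mice were 31719, 10588, 9101, 1356 and 1297 for replicates 1 to 5. In the 4 ApcMin/+; p16cis/cis mice they were 889, 1045, 479 and 1291. The first 3 ApcMin/+ mice stood far above every other mouse, while ApcMin/+ replicates 4 and 5 lay next to the highest mouse of the other genotype. The genotypes did not overlap, but 1297 and 1291 were all that parted them. ApcMin/+ mice averaged 10812 ± 12450 (SD, n = 5) and the other group 926 ± 341 (SD, n = 4). On the log2(normalized count + 1) scale Malat1 fell by 2.68 (SE 0.81, 95% interval -4.43 to -0.92, Benjamini-Hochberg adjusted p = 0.0408 from limma). That is 6.40-fold lower on the fitted scale. Over mice, the two-sided exact permutation test gave p = 0.0476.

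At this threshold 16.9% of the tested genes passed, 8.75% of them lower, and 1 of the 8 members tested passed, so the count of members is no larger than the background. In 1.64% of the tested genes the fall passed and was over 2-fold, as it was for Malat1. In normalized counts every mouse of the second group was lower than every ApcMin/+ mouse for 8.95% of the tested genes. Among the members this held for Malat1 alone. As Malat1 reads, the libraries held 28425, 11135, 9329, 1067 and 1143 in ApcMin/+ mice and 704, 655, 319 and 824 in the others, so counting error was small beside the spread between mice.

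The call for Malat1 rested on most of the mice. Leaving out any 1 of 7 of the 9 mice ended it, with limma adjusted p of 0.0623, 0.0903 and 0.0911 without ApcMin/+ replicate 1, 2 or 3 and 0.0746, 0.0836, 0.0944 and 0.0765 without ApcMin/+; p16cis/cis replicate 1, 2, 3 or 4. It was kept without ApcMin/+ replicate 4 (adjusted p = 0.00877) or replicate 5 (adjusted p = 0.0198), the low mice of that group. The log2 difference stayed between -3.20 and -2.05 in these 9 fits. On the recovered reads the call was made by edgeR (log2 fold change -3.55, adjusted p = 0.0185) and by DESeq2 (-3.54, adjusted p = 0.001). It was lost with sex as a covariate, where the log2 difference was -2.75 with an SE of 0.89 (adjusted p = 0.0706 from limma), and in females alone, where it was -2.89 with an SE of 1.04 (adjusted p = 0.123).

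Malat1 varied more between mice of 1 genotype than nearly any other gene. The SD of its log2 values within genotype was 1.57, which is at percentile 99.0 of the genes tested, where the median gene had 0.26. Most of this lay in ApcMin/+ mice (SD 2.01) rather than ApcMin/+; p16cis/cis mice (SD 0.61, percentile 87.7). Within ApcMin/+ mice the highest value was 24.4 times the lowest, and in the other group the ratio was 2.69. Kcnq1ot1, with a within-genotype SD of 1.65, was the only other member in the top 10% of genes on this measure.

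**Figure D1:**
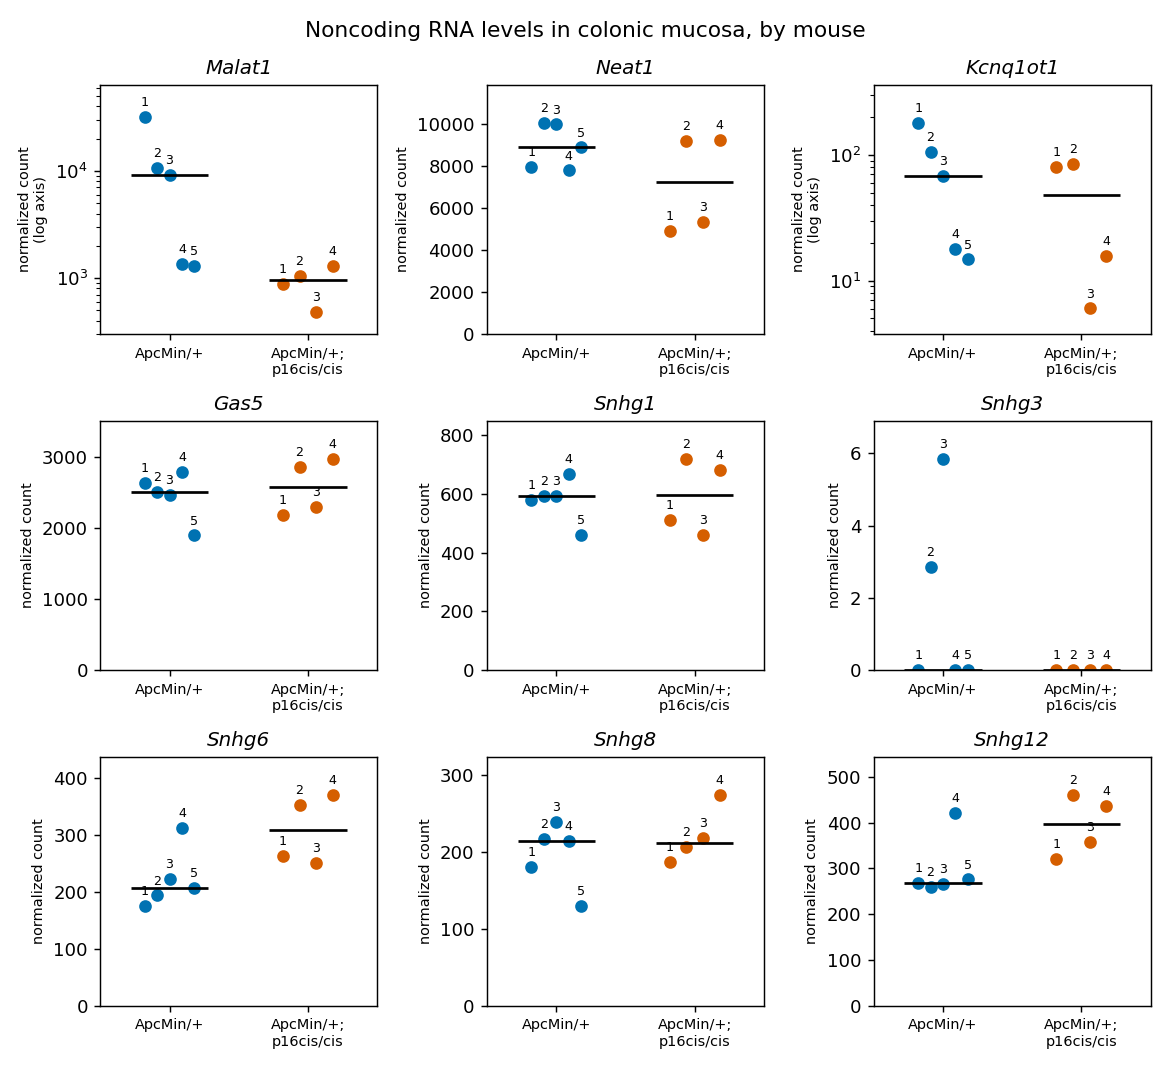
Normalized counts of the 9 noncoding RNAs in each mouse (points, numbered by replicate) and the median of each genotype (black lines), with log axes for Malat1 and Kcnq1ot1 and axes from 0 for the others. ApcMin/+ replicates 1 to 3 stand at 9101 and above for Malat1, all other mice at 1356 and below, and the host genes overlap between the genotypes.

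Neat1, the paraspeckle scaffold, lies beside Malat1 on chromosome 19, from 5824708 to 5845478 on the same strand, and the count on the gene mixes its short and long isoforms. The ApcMin/+ mice had 7954, 10062, 9993, 7800 and 8899 normalized counts for replicates 1 to 5. The ApcMin/+; p16cis/cis mice had 4902, 9196, 5335 and 9246. Replicates 1 and 3 of the second group were lower than every ApcMin/+ mouse, and replicates 2 and 4 were within the ApcMin/+ range. The log2 difference was -0.37 (SE 0.20, 95% interval -0.80 to 0.06, adjusted p = 0.213 from limma), within the spread of the mice (two-sided exact permutation test, p = 0.19). Its within-genotype SD, 0.35 on the log2 scale, was at percentile 66.1.

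The ratio of the neighbours showed the same 3 mice. Malat1 counts were 3.99, 1.05 and 0.911 times those of Neat1 in ApcMin/+ replicates 1 to 3, and 0.174 and 0.146 times in replicates 4 and 5. In ApcMin/+; p16cis/cis mice the ratio was 0.181, 0.114, 0.0899 and 0.140. ApcMin/+ replicates 4 and 5 lay inside the range of the other genotype, so for this ratio the groups overlapped. The size factor cancels in it.

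Kcnq1ot1 is transcribed from chromosome 7, 143203458 to 143296549 on the minus strand, antisense to Kcnq1. Its normalized counts were 180, 106, 68.3, 17.8 and 14.8 in ApcMin/+ mice. In ApcMin/+; p16cis/cis mice they were 79.6, 84.5, 6.01 and 15.7. Both genotypes held mice above 60 and mice below 20, and the ranges overlapped widely. The log2 difference was -0.81 (SE 0.86, 95% interval -2.69 to 1.08, adjusted p = 0.555 from limma, exact permutation p = 0.484, two-sided). The lowest mouse had 4 reads. Strand use in the counting is not given in the sources used here, so reads of Kcnq1ot1 and of the intron of Kcnq1 that it overlaps cannot be told apart.

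Imprinted and other genes of the Kcnq1 cluster were read beside Kcnq1ot1. Of 12 listed genes of the cluster 11 were tested, and 1 rose while 0 fell (median log2 difference 0.30, against -0.004 over all tested genes). Among all tested genes 8.14% rose and 8.75% fell. Kcnq1, a potassium channel of the epithelium, was at 3205 ± 364 (SD, n = 5) and 3977 ± 644 (SD, n = 4) normalized counts, with an adjusted p of 0.115 from limma. Cdkn1c, an imprinted inhibitor of the cell cycle that Kcnq1ot1 is known to silence, differed by 0.10 on the log2 scale (adjusted p = 0.836). The gene that rose was Tssc4, from 351 ± 39.8 to 482 ± 71.0 normalized counts (log2 difference 0.45, adjusted p = 0.0370). In fits with 1 mouse left out, 1 gene of the cluster rose without ApcMin/+ replicate 4 or 5. Without any other mouse 0 rose.

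Of the hosts, Gas5 was the highest in every mouse, and neither it nor Snhg1 differed between the genotypes beyond the spread. Gas5, a transcript known to build up in arrested cells, lies on chromosome 1 from 161034422 to 161038539 on the plus strand. Its normalized counts were 2631, 2515, 2468, 2786 and 1897 in ApcMin/+ mice. They were 2186, 2863, 2296 and 2976 in ApcMin/+; p16cis/cis mice. Every mouse lay within 1.57-fold of every other. The log2 difference was 0.07 (SE 0.13, 95% interval -0.23 to 0.36, adjusted p = 0.763 from limma), so the interval leaves room for a modest change in either direction.

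Snhg1, on chromosome 19 from 8723475 to 8726443 on the plus strand, hosts several C/D box snoRNAs. Its normalized counts were 579, 592, 592, 669 and 461 in ApcMin/+ mice. In the second group they were 510, 719, 460 and 681. The ranges almost coincided, and the log2 difference was 0.02 (SE 0.16, 95% interval -0.32 to 0.36, adjusted p = 0.947 from limma).

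Snhg6 and Snhg12 were the hosts with the larger differences, and neither passed. Snhg6, the host of Snord87, lies on chromosome 1 from 9941959 to 9944118 on the minus strand. Its normalized counts were 176, 194, 223, 313 and 208 in ApcMin/+ mice and 264, 353, 251 and 371 in the others. ApcMin/+ replicate 4 lay among the mice of the second group, and the other 4 ApcMin/+ mice lay below all of them. The log2 difference was 0.48 (SE 0.19, 95% interval 0.07 to 0.89, adjusted p = 0.0988 from limma, exact permutation p = 0.0635, two-sided).

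Snhg12 lies on chromosome 4 from 132308623 to 132311024 on the plus strand and carries the longest pyrimidine start of the set. Its normalized counts were 269, 259, 266, 421 and 276 in ApcMin/+ mice. The second group had 321, 461, 358 and 435. Again ApcMin/+ replicate 4 was the mouse that overlapped. The log2 difference was 0.41 (SE 0.17, 95% interval 0.04 to 0.78, adjusted p = 0.118 from limma, exact permutation p = 0.0714, two-sided). Without ApcMin/+ replicate 4 both genes passed, Snhg6 with a log2 difference of 0.61 (adjusted p = 0.0189) and Snhg12 with 0.54 (adjusted p = 0.0160), and then 2 of the 5 tested hosts did. In that fit 3488 of the 14410 genes passed, 1691 of them higher, against 2434 and 1173 with all mice.

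Snhg8, on chromosome 3 from 123507552 to 123508404 on the minus strand, hosts an H/ACA snoRNA. Its normalized counts ran from 129 to 239 in ApcMin/+ mice (median 214) and from 187 to 274 in the second group (median 212). The log2 difference was 0.19 (SE 0.19, 95% interval -0.23 to 0.61, adjusted p = 0.531 from limma).

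Snhg3 lies on the same chromosome as Snhg12, from 132348014 to 132353686 on the minus strand. It had 3 reads in ApcMin/+ replicate 2, 6 reads in replicate 3 and 0 in the 7 other mice. A count of 0 allows up to 3 reads, which is 2.85 to 4.79 normalized counts in these libraries, so nearly all values were at or under the limit and no fold is given.

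The 3 nuclear-retained RNAs all had log2 differences below 0 (median -0.81) and the 5 tested hosts all had values above 0 (median 0.19), while 49.6% of all tested genes had a value above 0. The sign of the hosts was not stable: with the share of mitochondrial reads as a covariate, or without ApcMin/+ replicate 5, Gas5 and Snhg1 turned to values below 0. All 5 stayed above 0 under TMM scaling and under scaling by nuclear reads. Summed over members, the nuclear-retained RNAs gave 9174 to 39852 normalized counts per mouse in ApcMin/+ and 5820 to 10552 in the second group. The hosts gave 2970 to 4402 and 3468 to 4739.

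**Figure D2:**
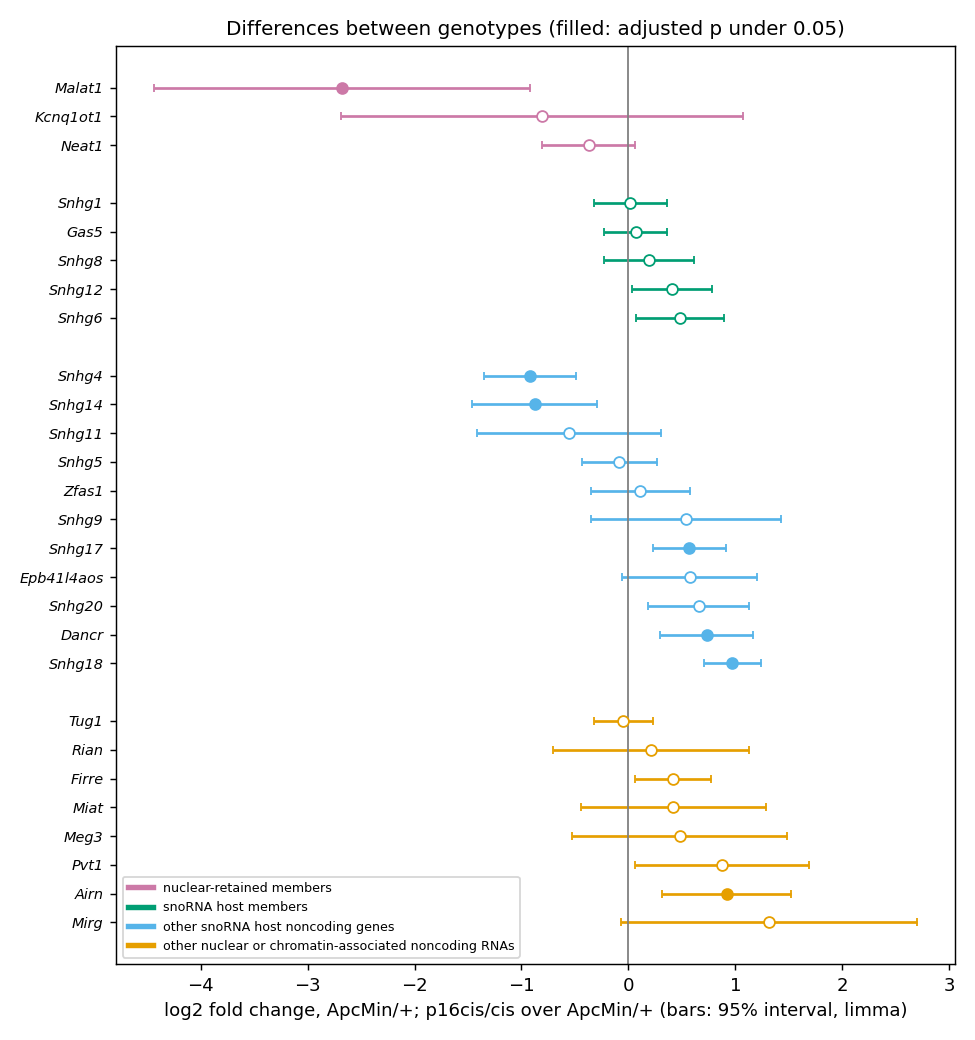
Log2 fold change (x axis, second genotype over ApcMin/+, with 95% intervals from limma) of each tested member and of the tested genes of related lists (y axis). Filled points passed at an adjusted p under 0.05; among the genes drawn Malat1, at -2.68, is the farthest from 0, with an interval from -4.43 to -0.92.

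Per kb of annotated exon, the levels of different genes can be set side by side, within the limits given below. Medians were taken gene by gene, so they come from different mice. Over ApcMin/+ mice the median of Malat1 was 1303 normalized counts per kb, of Gas5 669, of Neat1 428 and of Snhg8 250. Snhg1 followed at 200, Snhg6 at 181, Snhg12 at 112 and Kcnq1ot1 at 0.73. Over ApcMin/+; p16cis/cis mice the median of Gas5 led with 686, followed by Neat1 at 350, Snhg6 at 269 and Snhg8 at 248. Snhg1 was at 201, Snhg12 at 165, Malat1 at 138 and Kcnq1ot1 at 0.51. Mouse by mouse, Malat1 went from above Gas5 in ApcMin/+ replicates 1 to 3, at 4542, 1516 and 1303 per kb, to below Neat1 in the 6 other mice, where it was between 68.6 and 194. Snhg8, Snhg1 and Snhg6 were neighbours in this order whose ranges overlapped in both genotypes. Exon length counts every annotated exon of a gene, so genes with retained-intron models such as Gas5, with 20 of them, may be understated. Neat1 was divided by the 20771 bases of its long model, so reads from its short isoform would leave it understated too. Its order against Malat1 and Gas5 depends on that length. The part of the oligo(dT) selection in this order was not tested.

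**Figure D3:**
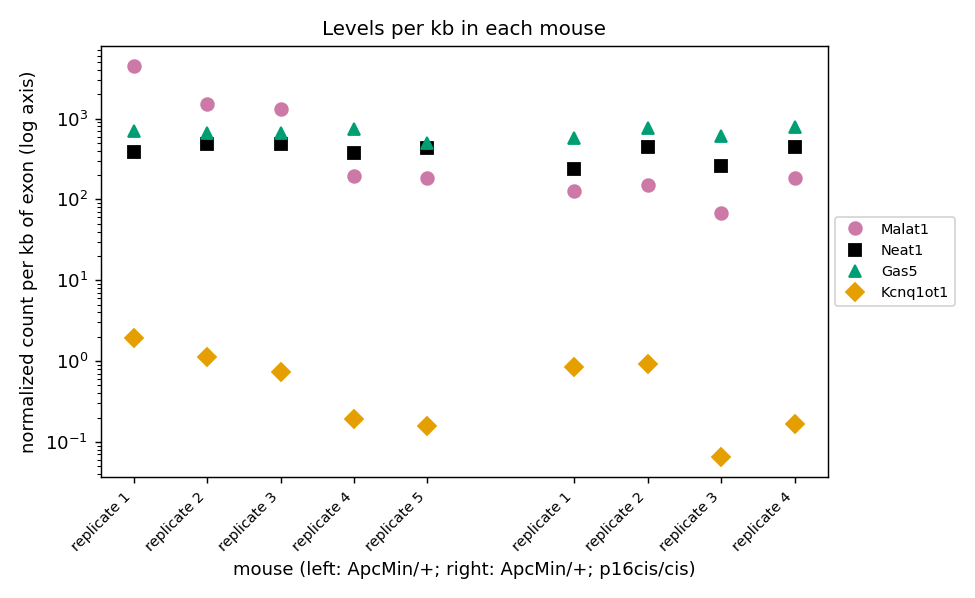
Normalized count per kb of annotated exon (log axis) of Malat1, Neat1, Gas5 and Kcnq1ot1 in each mouse (x axis). Malat1 is at the top in ApcMin/+ replicates 1 to 3, at 1303 or more, and lies below Neat1 in the other 6 mice. Neat1 is divided by the length of its long isoform, which may understate it.

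Depth, mitochondrial reads and other cell types differed between these libraries. The ApcMin/+ libraries held 15745098 to 17885918 reads on genes and the others 13523500 to 14900228. Mitochondrial genes took 8.74% to 15.6% of the reads in ApcMin/+ mice and 19.3% to 29.8% in ApcMin/+; p16cis/cis mice. With that share as a covariate Malat1 kept a log2 difference of -3.32 but its SE rose to 1.80 (adjusted p = 0.848 from limma), and 0 genes passed; the share and the genotype cannot be told apart. Within ApcMin/+ mice the share was 15.6%, 10.2%, 8.74%, 11.4% and 14.3% in replicates 1 to 5. Malat1 stood there at 31719, 10588, 9101, 1356 and 1297 normalized counts. The relation of the share to Malat1 within the genotype was not tested. As a share of nuclear reads Malat1 took 0.200%, 0.0697%, 0.0572%, 0.00764% and 0.00847% in ApcMin/+ mice and 0.00283% to 0.00790% in the others. On this scale the groups overlapped.

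All 8 epithelial markers were high in every mouse, with sums of 198573 to 288325 normalized counts in ApcMin/+ mice and 192624 to 263820 in the others, and 0 of 8 passed. The smallest p among them was that of Krt18, a keratin of simple epithelia (log2 difference 0.39, adjusted p = 0.0876). The 8 immune markers summed to 136 to 1478 and 285 to 431, with no marker at 0 in any mouse, and 6 of 8 had a log2 difference below 0 (median -0.87). Of these 2 fell, Jchain of plasma cells (log2 difference -2.65, adjusted p = 0.0175) and Lyz2 of macrophages (-1.56, adjusted p = 0.00745). The 8 stromal and muscle markers summed to 140 to 709 and 105 to 255, and all 8 had a log2 difference below 0 (median -1.45). Of them 1 fell, Col3a1 (-2.92, adjusted p = 0.0414), and 0 to 5 fell with 1 mouse left out. Among all tested genes 8.75% fell. Without ApcMin/+ replicate 4, 5 immune and 5 stromal and muscle markers fell, as did 1797 of the 14410 tested genes. Col1a2, Col3a1 and Des were each at 0 in 1 mouse. ApcMin/+ replicates 1 to 3, the mice with the most Malat1, had sums of immune markers of 685, 1125 and 841. Their stromal and muscle sums were 600, 338 and 560. Each of these sums was above those of every mouse of the second group. ApcMin/+ replicates 4 and 5, which had near-equal Malat1, had the lowest and the highest sum of immune markers of all mice, 136 and 1478. The stromal and muscle sums of replicates 4 and 5, 140 and 709, were the lowest and the highest of the ApcMin/+ mice. Replicates 1, 3 and 4 of the second group were lower still, at 124, 125 and 105. In bulk mucosa fewer cells of a type and less RNA per cell cannot be told apart, and the part of cell makeup in the Malat1 difference was not tested.

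Among 11 other snoRNA host genes tested, of 15 listed, 3 rose and 2 fell (median log2 difference 0.54), against 8.14% and 8.75% of all tested genes. Snhg18 rose the most. It had 982 to 1366 normalized counts in ApcMin/+ mice and 1837 to 2430 in the others, with no overlap, as for 7.24% of tested genes in that direction (log2 difference 0.97, SE 0.12, adjusted p = 0.00172 from limma). Snhg4 went the other way, from 175 to 250 down to 72.2 to 131 (log2 difference -0.92, adjusted p = 0.0111). Snhg14, a long imprinted host of brain snoRNAs, fell as well, from 67.4 ± 14.2 (SD, n = 5) to 37.2 ± 12.9 (SD, n = 4) normalized counts (-0.88, adjusted p = 0.0437 from limma), though not by edgeR (adjusted p = 0.0534). Snhg17 and Dancr also rose (0.57 and 0.73, adjusted p = 0.0280 and 0.0285). With 1 mouse left out, 1 to 4 of these hosts rose and 1 or 2 fell. The log2 differences of the member hosts lay between those of Snhg4 and Snhg18.

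Against 8.14% and 8.75% of all tested genes, 1 of 8 other nuclear or chromatin-associated noncoding RNAs rose and 0 fell. It was Airn, an imprinted antisense RNA that, like Kcnq1ot1, silences neighbours on its own chromosome copy (105 ± 36.7 to 201 ± 66.3 normalized counts, log2 difference 0.92, adjusted p = 0.0411 from limma). The median of the list was 0.45, on the opposite side of 0 from the nuclear-retained members. Among 3 tested messenger RNAs known to be held in the nucleus, of 4 listed, Mlxipl rose (0.73, adjusted p = 0.0209). Mlxipl encodes a glucose-responsive transcription factor.

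Transcripts of the proteins that gather on Neat1 were read as well. Of 12 paraspeckle proteins and Neat1 3′ end factors 1 rose, 3 fell and 8 did not pass (median log2 difference -0.12), against 8.14% and 8.75% of all tested genes. Pspc1, a core paraspeckle protein, fell from 416 ± 61.1 (SD, n = 5) to 258 ± 34.0 (SD, n = 4) normalized counts (log2 difference -0.68, adjusted p = 0.0109). Cpsf6, which with Nudt21 favours the short Neat1 isoform, fell by 0.37 on the log2 scale (adjusted p = 0.0492). Dazap1, an RNA-binding paraspeckle component, rose from 2326 ± 158 to 3238 ± 305 (0.47, adjusted p = 0.00971). In each fit with 1 mouse left out 1 of the list rose, and 1 to 4 fell.

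Of 14 nuclear speckle proteins, the neighbours of Malat1 RNA in the nucleus, 1 rose and 1 fell (median 0.07), against 8.14% and 8.75% of all tested genes. Srrm2, a scaffold of speckles, rose from 7725 ± 1342 to 11846 ± 2387 normalized counts (log2 difference 0.61, adjusted p = 0.0294 from limma). Srsf2, a splicing factor of the SR family, fell by 0.42 on the log2 scale (adjusted p = 0.0340). The 12 others did not pass.

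The proteins that handle snoRNAs and the spliced host RNAs were read next. Of 16 tested snoRNP core and assembly proteins 2 rose and 0 fell (median 0.11), against 8.14% and 8.75% of all tested genes. The 2 were Pih1d1, an assembly factor (log2 difference 0.63, adjusted p = 0.00909), and Nhp2, a core protein of H/ACA particles (0.46, adjusted p = 0.0260). Of 13 nonsense-mediated decay factors 3 rose and 0 fell (median 0.10), against the same shares of all tested genes. With 1 mouse left out the number that rose was 0 to 4, with 0 without ApcMin/+ replicate 2 or 3 or ApcMin/+; p16cis/cis replicate 4. The 3 were Smg6, the nuclease that cuts decay targets (0.53, adjusted p = 0.0268), Smg5, its partner (0.45, adjusted p = 0.0211), and Upf1, the central helicase (0.32, adjusted p = 0.0300).

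Genes that share the pyrimidine start with the hosts were compared too. Of 17 tested translation genes of this class 1 rose, Eef1d (0.43, adjusted p = 0.0396 from limma), and 1 fell, Eif4b (-0.37, adjusted p = 0.0391), with a median of -0.03. Leaving out 1 mouse gave 0 to 2 that rose and 0 to 2 that fell. Among all tested genes 8.14% rose and 8.75% fell. Of 74 tested cytoplasmic ribosomal protein genes 27 rose and 0 fell (median 0.39). The number that rose was 13 without ApcMin/+; p16cis/cis replicate 2 or 4 and 34 without ApcMin/+ replicate 4. That mouse stood apart from its group here, with a list sum of 281948 normalized counts against 177825 to 228709 in the 4 other ApcMin/+ mice and 254429 to 305862 in the second group. The largest rises were those of Rpl13 (log2 difference 2.36, adjusted p = 0.0110), Rpl19 (27.4 ± 21.9 to 96.1 ± 21.3 normalized counts, adjusted p = 0.00987) and Rpsa (log2 difference 1.99, adjusted p = 0.00755). For Rpl13 ApcMin/+ replicate 4 had 2005 normalized counts and the 4 other ApcMin/+ mice 211 to 388. Ribosomal protein genes have many processed copies in mammalian genomes, and the part of shared reads in these counts was not tested.

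RNAs of classes that mostly lack a poly(A) tail, chiefly histone genes picked by symbol, were read beside the nuclear-retained RNAs. Whether the transcripts counted here had a tail was not tested. Of the 76 listed, 18 were tested, and 1 rose and 0 fell, against 8.14% and 8.75% of all tested genes. The gene that rose was Hist1h2bc, a histone (log2 difference 0.58, adjusted p = 0.00914 from limma). The 76 listed RNAs summed to 3537 to 7195 normalized counts in ApcMin/+ mice and 4528 to 7333 in the second group, so the ranges overlapped. Of the 19 tested mitochondrial genes 8 rose and 0 fell, with a median of 1.15. Leaving out 1 mouse changed the number that rose to between 1 and 10. It was 1 without ApcMin/+ replicate 3 or ApcMin/+; p16cis/cis replicate 2 or 4. The largest rises with all mice were those of the transfer RNA genes mt-Tt (3.41, adjusted p = 0.0034), mt-Te (2.24, adjusted p = 0.0333, by edgeR 0.108) and mt-Ti (1.74, adjusted p = 0.0306).

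Genes near the members on the chromosome gave 1 rise and 0 falls among 9 tested, against 8.14% and 8.75% of all tested genes. Frmd8, next to Neat1, differed by 0.00 on the log2 scale (adjusted p = 0.994 from limma). Trnau1ap, next to Snhg12 and a factor of selenocysteine insertion, rose from 446 ± 48.5 (SD, n = 5) to 643 ± 71.7 (SD, n = 4) normalized counts (0.53, adjusted p = 0.0144 from limma).

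The members were also compared with each other across mice, with each genotype mean taken off the log2 values so that the genotype difference plays no part. All 10 pairs of hosts had a positive Pearson's r, with a median of 0.66, and so had the 3 pairs of nuclear-retained RNAs, with a median of 0.24. How common a positive r was among pairs of all tested genes was not counted, so these counts have no background beside them. Of 15 pairs with 1 of each kind, 11 were positive and 4 negative. The positive pairs of Kcnq1ot1 turned negative without the 2 mice farthest from its median. Its r went from 0.261 to -0.506 with Gas5, from 0.349 to -0.473 with Snhg1 and from 0.0536 to -0.683 with Snhg8. The pairs of Malat1 or Neat1 with a host kept their sign when the 2 farthest mice were left out. Gas5 and Snhg1 had the highest r, 0.923 over 9 mice (exact permutation p = 0.0094 within genotype, Spearman's rho 0.85, exact permutation p = 0.0247), and 0.936 without the 2 mice farthest from the median of Gas5. Snhg6 and Snhg12 had an r of 0.911 (exact permutation p = 0.0236, rho 0.667, exact permutation p = 0.0806), and 0.751 without the 2 farthest mice. Some pairs with Snhg8 had a much lower r when the 2 farthest mice were left out, Gas5 and Snhg8 going from 0.749 to 0.179 and Snhg6 and Snhg8 from 0.387 to 0.0735, so that part of the positive block rests on those mice.

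No pair passed after adjustment over the 28 pairs, the smallest Benjamini-Hochberg adjusted p being 0.131 for r and 0.399 for rho.

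Malat1 and Kcnq1ot1 were the closest pair among the nuclear-retained RNAs, with an r of 0.778, which was 0.630 without the 2 mice farthest from the median of Malat1. Replicates 1 to 3 of ApcMin/+ were the highest of their group for both RNAs and replicates 4 and 5 the lowest. In the second group replicate 3 was the lowest for both, while the highest was replicate 4 for Malat1 and replicate 2 for Kcnq1ot1. Malat1 and Neat1, neighbours on the chromosome, had an r of 0.238. The ApcMin/+ mice fall into separate clusters for Malat1, so a pooled r with Malat1 rests mainly on the gap between replicates 1 to 3 and replicates 4 and 5. For Malat1 and Kcnq1ot1 the exact permutation p of r within genotype was 0.00868 and the adjusted p over the 28 pairs 0.131.

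**Figure D4:**
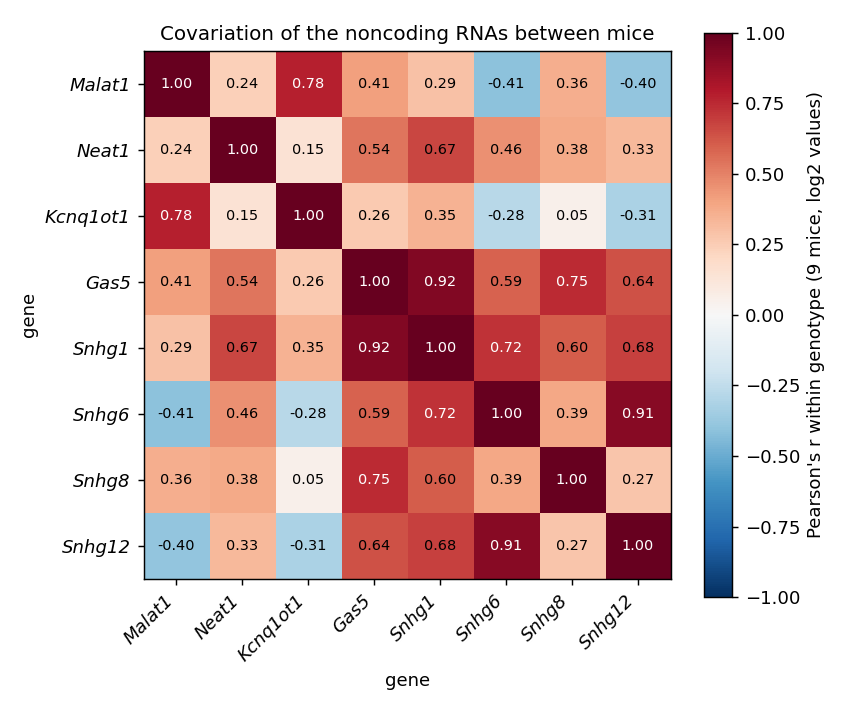
Pearson's r between tested members over 9 mice after subtraction of each genotype mean (colour scale from -1 to 1, value in each cell). The host block holds only positive values, up to 0.92 for Gas5 and Snhg1, and the strongest pair among the nuclear-retained RNAs is Malat1 with Kcnq1ot1 at 0.78.

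The genes whose pattern was most like each RNA were found by the same r among all 14410 tested genes, as a description with no test. For Malat1 they were Eif5b, a translation initiation factor (r = 0.986), RP23-358K1.3 (0.982), RP23-20K24.9 (0.977), Upf3b of nonsense-mediated decay (0.976) and Nsrp1, a splicing regulator of nuclear speckles (0.973). For Kcnq1ot1 they were RP23-415D19.15 (0.948), RP23-231L15.4 (0.944), Cnnm3 (0.943), Akr1c18 (0.942) and WI1-1981I9.2 (0.938). The annotation leaves 3 of these 5 as gene models still to be tested experimentally.

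For Neat1 the closest genes were Unc45a (0.981), Trmt61b (0.965), RP23-413D14.9 (0.947), Slc7a6os (0.947) and Senp3 (0.942). Gas5 and Snhg1 shared Ring1, a Polycomb E3 ligase, among their closest genes (0.973 and 0.980). The others were Smim11 (0.974), Atp6v0b (0.973), Oard1 (0.969) and RP23-288B18.1 (0.968) for Gas5, and Cdc26 (0.982), Sppl2b (0.981), Mirg (0.978) and Zfp691 (0.974) for Snhg1. Each r rests on the same 9 mice, and the differences between these r were not tested.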

How the data were processed

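RNA-seq of colonic mucosa from 9 mice was analyzed. The methods give BGISEQ-500 sequencing, BOWTIE2 and RSEM, and name no genome build or tool version. The authors deposited a signal table of counts divided by a size factor per mouse, as DESeq2 makes them. Reads were recovered from the value of 1 read (100% of positive values whole to within 0.01 reads). Genotype was the only term of the main test, limma 3.58.1 (R 4.3.3, trended variances, Benjamini-Hochberg adjustment), run on log2(normalized count + 1) for the 14410 genes that reached 10 in 4 or more mice. A gene passed at an adjusted p-value under 0.05. Fold changes on this scale understate low genes. Alternatives were edgeR 4.0.16 and DESeq2 1.42.0 on recovered reads, other scalings, filters, covariates, a loess correction for GC content and length, and each mouse left out.

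Of the gene identifiers 52480 matched GENCODE M21 with their version and 54079 without. The members and gene lists were chosen with earlier results of these data known. Named genes are the members, in each list up to 3 that passed with the largest difference (or the 1 with the smallest p), and the 5 most like Malat1, Neat1, Kcnq1ot1, Gas5 and Snhg1. Snhg17, Dancr, Kcnq1, Cdkn1c and Frmd8 were named after their values were seen. A neighbouring gene is not reported here. The procedure was tested on simulated data. P-values measure the spread between these mice, and floors cover counting error only.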

Additional observations from a re-analysis of the deposited data

Results flagged for a closer look

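In the 17 groups of 4 or 5 mice with any spread (9 genes in 2 genotypes), 1 mouse stood apart by Dixon's criterion, where chance gives about 1 in 20. It was ApcMin/+ replicate 4 for Snhg12, with 420.7 normalized counts against 259 to 276 in the 4 other ApcMin/+ mice, a gap of 0.894 of the group's range. The same mouse was the highest of its group for Snhg6, Gas5 and Snhg1 as well. Without it Snhg12 passed, with a log2 difference of 0.54 (limma adjusted p = 0.0160). The criterion was applied to normalized counts, not to log2 values, and it set apart no ApcMin/+ mouse for Malat1. Replicate 1 was the highest there by far, at 31719 normalized counts against 10588 in the next mouse.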

How the results depend on the processing

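Over 21 alternatives Malat1 kept a negative log2 difference (-3.55 to -2.05) and passed in 10. Neat1 and Kcnq1ot1 passed in 0. The nuclear-retained members passing fell from 1 to 0 with sex or mitochondrial share as a covariate, in females only, and with the GC and length correction (Malat1 adjusted p = 0.0724 from limma). The count of tested hosts passing stayed at 0 except with 1 mouse left out. With 1 mouse left out, 1183 to 3488 genes passed in place of 2434, 281 to 755 were over 2-fold in place of 501, 0 to 1 nuclear-retained members and 0 to 2 hosts passed. Genes passing and those over 2-fold numbered 1437 and 331 with sex as a covariate, 898 and 286 in females only, and 0 and 0 with the mitochondrial share. Scaled by nuclear reads 312 were over 2-fold. Signs turned only for small differences: Gas5 and Snhg1 gave -0.167 and -0.292 with the mitochondrial share. With 1 mouse left out they ranged from -0.0224 to 0.144 and from -0.0820 to 0.133, below 0 for Gas5 without ApcMin/+ replicate 5 or ApcMin/+; p16cis/cis replicate 4, and for Snhg1 without these or replicate 2 of the second group. Snhg8 gave -0.00881 with the GC and length correction. The cause was not tested.

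Replicate numbers name different mice, and same-numbered mice had correlations of -0.175, 0.066, 0.0465 and 0.142 in their deviations, so they are not pairs. A fit with the replicate number as a block left out ApcMin/+ replicate 5, which has no same-numbered mouse. In it 2081 genes passed, 473 over 2-fold, against 2042 and 463 without that mouse and without the block. Gas5 and Snhg1 gave -0.0224 and -0.0599 in both of these fits. No member call changed with the block.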
